A study of Macaca mulatta with 11 samples.

Results

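Infant marrow cultures were set against younger and older ones together, in order to find genes that were highest or lowest in infancy. A gene of this kind reads the same way at both ends of life, so that a comparison of fetal with adult cells, or a trend with age, can miss it. The comparison, called the infant contrast here, was the mean of the 4 infant arrays minus the average of the fetal mean (4 arrays) and the adult mean (3 arrays), and it used 11 of the 11 arrays in the series. Each array held RNA from 1 culture of rhesus monkey (Macaca mulatta) mesenchymal stem cells grown from bone marrow. The fetal group held 2 cultures from donors at gestation day 120 (arrays 1 and 2) and 2 from newborns that the titles also call fetal (arrays 3 and 4). Infant arrays 1 to 4 came from animals of 6, 6, 3 and 5 months, and adult arrays 1 to 3 from animals of 7, 7 and 8 years. No group was treated, and all cultures were collected before confluence at the second passage. Marrow was collected in different ways, by flushing the long bones of fetuses and newborns and by aspiration in infants and adults, so that the infant-to-fetal side of the contrast cannot be told apart from the collection method. Whether the arrays of a group represent separate animals is not stated in the labels, and p-values therefore describe variation among cultures.

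Marrow mesenchymal stem cells are adherent stromal cells able to become bone, fat or cartilage cells, and in the marrow they support blood formation. They build a matrix rich in fibrillar collagens. Like other cultured cells they answer serum, stretch or handling with a brief burst of immediate early genes, whose best known products, FOS and JUN, pair as the AP-1 transcription factor. The years between birth and adulthood are a time of rapid bone growth, in which the same stromal population serves an expanding skeleton.

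The values were intensities per probe set, a group of probes for 1 transcript, on an array annotated with human genes, and are given here as log2. A value of 1 on this scale is a doubling, and brightness was set against other probe sets only to say which were dim or bright. Median intensities lay between 164.9 and 169.6. ENG, THY1, NT5E and CD44, surface proteins that define these cells, differed by 0.03, -0.12, 0.06 and 0.23 in the infant contrast (limma adjusted p of at least 0.885). The direction of ENG and of THY1 changed when single arrays were left out. Of 8 CD44 probe sets the infant mean was the highest in 1, the lowest in 2 and between the others in 5. NT5E read dim, with group means of 6.93 to 7.05 against a median of 7.38 over all probe sets and arrays. PTPRC, the leukocyte common antigen, differed by -0.13, or by 0.04 without infant array 1.

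Some arrays stood apart in ways that crossed the age groups. The first principal component (23.1% of the variance) placed infant arrays 1 and 2 at 19.6 and 16.1 and adult arrays 1 and 2 at 18.7 and 20.5, against -19.5 to -6.7 for the remaining 7. Adult array 3 read 11.23 for XIST, the RNA of the inactive X chromosome, and 7.81 for the Y-linked RPS4Y1, against 7.27 to 8.40 and 11.30 to 12.16 in all other arrays. IGLC1, an immunoglobulin light chain gene, read 12.82 and 13.23 in adult arrays 1 and 2, 9.10 in adult array 3 and at most 8.30 elsewhere. In bulk RNA of this kind fewer cells of a type and less RNA per cell cannot be told apart.

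No gene passed the test over all 22215 probe sets in the infant contrast. Limma called 0 probe sets (0%) at a Benjamini-Hochberg adjusted p under 0.05, and the smallest adjusted p was 0.214, for CD99. Before adjustment 1241 probe sets (5.59%) had a p under 0.05, of which 481 were higher and 760 lower in infants. Of these 1241 the infant mean lay outside both other means in 1214 and between them in 27. On the separate sides, 0 probe sets were called between infant and fetal arrays (smallest adjusted p 0.0556) and 4 between infant and adult arrays. The infant-to-adult count was 9 with the replicate number as a block, 0 without infant array 3 or adult array 1, 2 without fetal array 1, and 55 without adult array 3. The infant-to-fetal count was 21 without fetal array 4, 4 without infant array 3 and 3 without adult array 3. Fetal and adult arrays differed in 29 probe sets.

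Peaks and dips were therefore described by whether the infant arrays overlapped the others. All 4 infant arrays lay above all 7 others for 57 probe sets (0.257%) and below all 7 for 97 (0.437%). These held 44 and 81 named genes. None of these probe sets was called on either side. The differences were small. The smaller of the infant-to-fetal and infant-to-adult differences had a median of 0.21 for peaks, with a range of 0.04 to 0.96, and of -0.20 for dips, with a range of -0.49 to -0.05. It reached 0.5 in 6 peaks and in 0 dips. The excess of dips depended on the scaling between arrays. Quantile normalization of the log2 values gave 84 peaks and 71 dips, with 51 and 59 shared with the deposited scale, and median centring gave 72 and 85, with 52 and 73 shared. Peaks thus made up 37.0%, 54.2% and 45.9% of the probe sets without overlap under the 3 scalings.

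On both sides at once the unadjusted p was under 0.05 for 94 probe sets with the infant mean highest (0.423%) and for 111 with it lowest (0.500%). With 1 probe set per gene the infant mean was the highest of the 3 in 3173 of 11950 genes (26.6%), the lowest in 4286 (35.9%) and between the others in 4491 (37.6%). These shares were 30.3% and 32.2% for highest and lowest after quantile normalization, and 28.3% and 33.8% after median centring. Other probe sets of the same genes were read on the same arrays and so give no independent check. The genes of the peaks had 64 other probe sets, of which 38 had the same sign and 5 of these an unadjusted p under 0.05. Those of the dips had 101, of which 62 had the same sign and 6 of these an unadjusted p under 0.05. Over all 22215 probe sets 481 were higher and 760 lower at this level. The median contrast over all probe sets was -0.01, so that many share either sign without a peak or dip.

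**Figure D1:**
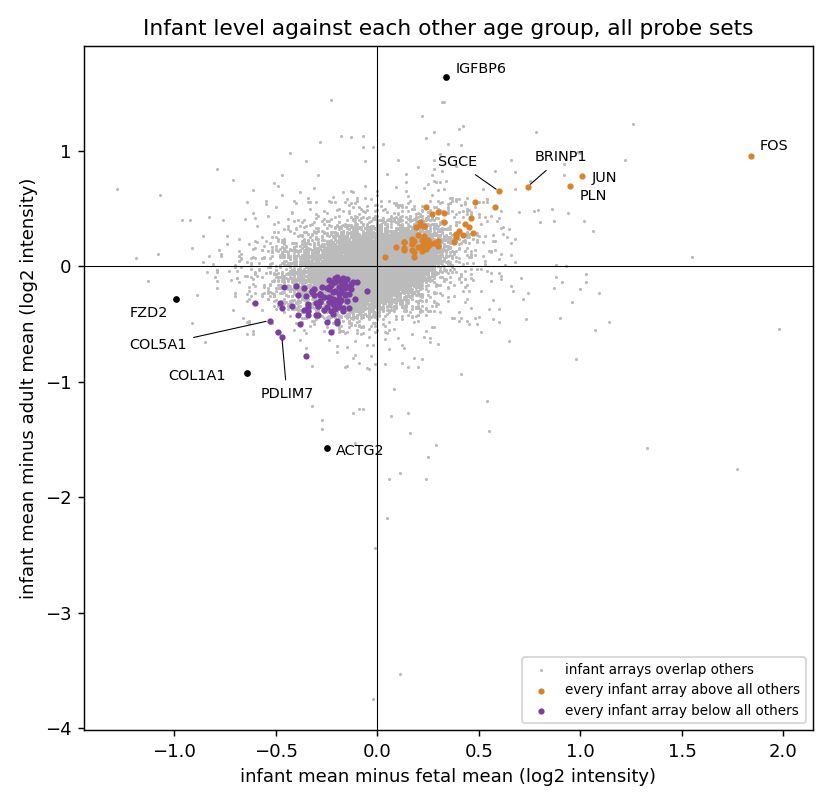
Infant mean minus fetal mean (x axis) against infant mean minus adult mean (y axis) in log2 intensity, with 1 point for each of 22215 probe sets. Orange points are the 57 probe sets with every infant array above all others and purple points the 97 with every infant array below them. Among the orange points FOS lies furthest in both directions, at 1.84 and 0.96.

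FOS, the AP-1 subunit, showed the largest peak by the smaller of its 2 differences. It read 9.80, 9.47, 9 and 10.79 in fetal arrays 1 to 4, 11.71, 11.43, 11.33 and 11.97 in infant arrays 1 to 4, and 10.98, 11.12 and 9.84 in adult arrays 1 to 3. All infant arrays lay above all others, but fetal array 4 and adult arrays 1 and 2 came closer than the rest. The infant mean of 11.61 ± 0.29 (SD, n = 4) exceeded the fetal 9.77 ± 0.76 (SD, n = 4) by 1.84 and the adult 10.65 ± 0.70 (SD, n = 3) by 0.96. The infant contrast was 1.40 (SE 0.30), a 2.64-fold difference, with an adjusted p of 0.835. It stayed between 1.20 and 1.57 when any 1 array was left out.

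JUN, the partner of FOS in AP-1, read 8.62, 9.49, 8.98 and 9.10 in fetal, 10.02, 10.10, 10.17 and 9.93 in infant, and 9.90, 9.78 and 8.13 in adult arrays. The infant arrays lay close together and above all others, although by only 0.03 over adult array 1, and adult array 3 was the lowest of the 11. The infant contrast was 0.90 (SE 0.27, adjusted p = 0.885), 1.01 against fetal and 0.78 against adult arrays. All 4 JUN probe sets had this sign, the other 3 at 0.25, 0.23 and 0.17, and the infant mean was the highest in 3 of the 4. Leaving out single arrays gave a contrast of 0.61 to 1.05. Adult arrays 1 and 2, at 9.90 and 9.78, lay near the infant arrays, so that the adult side rested mostly on adult array 3. With adult arrays 1 and 2 left out the contrast was 1.47, in a fit that kept adult array 3 alone for the adults.

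The next peaks in size included PLN and SGCE. PLN, phospholamban, which restrains the calcium pump of the sarcoplasmic reticulum, read 7.41, 6.95, 7.22 and 7.44 in fetal, 8.83, 8.31, 7.91 and 7.78 in infant, and 7.52, 7.36 and 7.64 in adult arrays. Infant arrays 1 and 2 were the highest, and infant array 4 lay 0.14 above adult array 3. The fetal mean of 7.25 was dim, below the median of 7.38 over all probe sets and arrays. The contrast was 0.83 (SE 0.17, adjusted p = 0.835), and the 2 other PLN probe sets stood at 0.25 and 0.03. SGCE, epsilon-sarcoglycan, a membrane protein of the dystrophin complex, read 8.17, 8.50, 8.54 and 8.54 in fetal, 9.14, 9.44, 8.86 and 8.70 in infant, and 8.54, 8.36 and 8.26 in adult arrays. Again no infant array overlapped the others and arrays 1 and 2 were the highest, with a contrast of 0.63 (SE 0.13, adjusted p = 0.835) from the single SGCE probe set.

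BRINP1, which encodes a secreted neural protein that restrains cell division, read 7.56, 7.54, 7.90 and 8.01 in fetal, 8.99, 8.94, 8.03 and 8.02 in infant, and 7.72, 7.98 and 7.70 in adult arrays. Infant arrays 1 and 2 stood about 1 unit above all others, whereas infant arrays 3 and 4 barely cleared fetal array 4. The contrast was 0.72 (SE 0.19, adjusted p = 0.868). Infant arrays 1 and 2 are the ones that stood apart with adult arrays 1 and 2 on the first component. With those 4 arrays left out the contrast was 0.30 for BRINP1, 0.40 for PLN and 0.43 for SGCE, against 1.85 for FOS and 1.46 for JUN. That fit kept 1 adult array and took its spread from the infant and fetal arrays.

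CD99 and CFD had the smallest adjusted p among the peaks. CD99, a surface glycoprotein that takes part in cell adhesion and migration, read 11.22, 11.19, 11.06 and 11.10 in fetal, 11.67, 11.59, 11.60 and 11.61 in infant, and 10.98, 11.20 and 11 in adult arrays. All infant arrays lay at least 0.37 above all others, and the infant SD was 0.03. The contrast was 0.52 (SE 0.08), a 1.43-fold difference, with an adjusted p of 0.214. The other CD99 probe set also had all infant arrays above all others, at 0.36 (SE 0.10, adjusted p = 0.885). The first probe set passed without adult array 3 (0.50, adjusted p = 0.0301) and with a pseudocount of 64 added before log2 (0.51, adjusted p = 0.0298). Without adult array 3 it had the largest p of the 23 probe sets called. The adjustment is milder where many other probe sets pass, so that this pass does not show a larger difference. Human CD99 lies in the region shared by the X and Y chromosomes, and adult array 3 is the array that differed in XIST and RPS4Y1. Without that array the contrast was 0.50, against 0.52 with it. Donor sex is not given in the labels, and its part in this peak was not tested.

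CFD, complement factor D, a serine protease that fat cells also secrete, read 7.30, 7.28, 6.95 and 7.09 in fetal, 7.85, 7.67, 7.86 and 7.56 in infant, and 7.15, 7.34 and 7.20 in adult arrays. No infant array overlapped the others, and the fetal and adult arrays occupied the same range. The probe set was dim, with fetal and adult means of 7.16 and 7.23 against a median of 7.38 over all probe sets and arrays. The contrast was 0.54 (SE 0.10, adjusted p = 0.429), at 0.58 against fetal and 0.51 against adult arrays. EEF1D, a subunit of translation elongation factor 1, completed the 8 largest peaks at 0.44 (SE 0.10, adjusted p = 0.865). Its probe sets disagreed, with the other 3 at 0.11, 0.10 and -0.16. The peak came from the dimmest, with a mean of 7.43 over all arrays. The brightest, with a mean of 11.56, was the one at -0.16 and had the infant mean lowest.

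**Figure D2:**
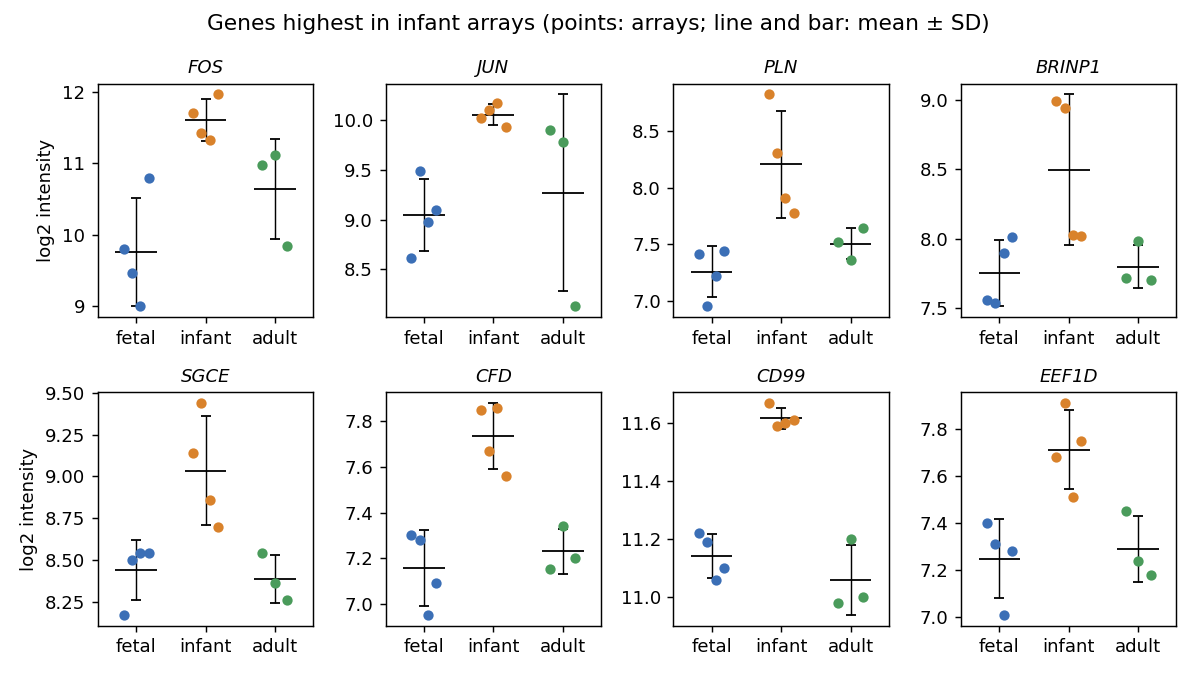
Log2 intensity in each array for the 8 genes with the largest peaks, by age group, where points are arrays and lines and bars the mean ± SD (n = 4 fetal, 4 infant, 3 adult). Every infant point lies above all others in its panel, widely for CD99 at 11.59 to 11.67 and narrowly for BRINP1, where infant arrays 3 and 4 read 8.03 and 8.02.

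The largest dips were shallower. PDLIM7, a scaffold protein of actin filaments that also promotes bone formation, read 9.12, 9.08, 9.29 and 8.95 in fetal, 8.42, 8.74, 8.93 and 8.49 in infant, and 9.08, 9.17 and 9.50 in adult arrays. Infant array 3 lay only 0.02 below fetal array 4, and the separation was lost after quantile normalization. The contrast was -0.54 (SE 0.12, adjusted p = 0.865). Its 4 other probe sets, at -0.09, -0.09, 0.03 and 0.11, did not share this size, and 2 of them had the opposite sign.

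COL5A1, the collagen V chain that starts and limits the growth of collagen fibrils, read 8.59, 9.12, 8.66 and 9.21 in fetal, 8.27, 8.28, 8.38 and 8.54 in infant, and 8.67, 8.75 and 9.10 in adult arrays. The infant arrays were the lowest 4, by 0.05 below fetal array 1, and the separation was also lost after quantile normalization. The contrast was -0.50 (SE 0.13, adjusted p = 0.868). The infant mean was the lowest in all 3 COL5A1 probe sets, with the other 2 at -0.60 and -0.30.

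KYNU, kynureninase of the tryptophan breakdown pathway, read 8.26, 8.08, 8.38 and 8.05 in fetal, 7.76, 7.92, 7.71 and 7.84 in infant, and 8.19, 8.74 and 7.97 in adult arrays. The infant arrays were the lowest, by 0.06 below adult array 3. The contrast was -0.44 (SE 0.13, adjusted p = 0.885), and of the other 3 probe sets 2 stood at -0.75 and -0.50 and 1 at 0.03.

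Peaks and dips without overlap were ranked by the smaller of the fetal-side and adult-side differences, and the other genes of the 8 largest dips by this measure had contrasts between -0.42 and -0.34. SMYD5, a lysine methyltransferase, had the smallest adjusted p of them, with fetal arrays at 8.38, 8.20, 8.36 and 8.44, infant arrays at 7.84, 7.84, 8.05 and 7.99, and adult arrays at 8.28, 8.21 and 8.33. Its highest infant array lay 0.15 below the lowest other array, and its contrast was -0.38 (SE 0.08, adjusted p = 0.835). SLC17A9, a vesicular nucleotide transporter, stood at -0.42, TM2D1, a membrane protein that binds amyloid peptide, at -0.40 with other probe sets at -0.13, -0.09 and 0.19, ALDH4A1, a mitochondrial enzyme of proline breakdown, at -0.37, and BACE2, a protease related to beta-secretase, at -0.34. The TM2D1 probe set was dim, with group means of 6.76 to 7.17 against a median of 7.38 over all probe sets and arrays. ALDH4A1 lost its separation after median centring, and its other probe set stood at 0.06. The 13 other genes of the 16 largest peaks and dips, without ALDH4A1, PDLIM7 and COL5A1, kept no overlap under both scalings.

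**Figure D3:**
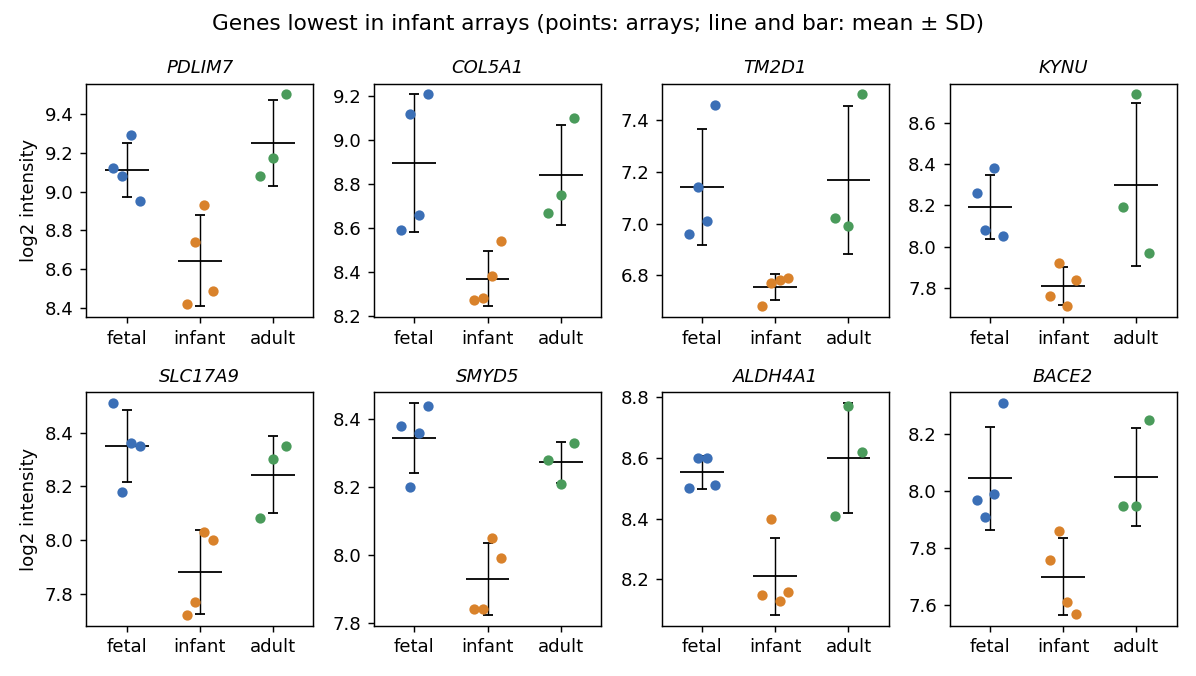
Log2 intensity in each array for the 8 genes with the largest dips, by age group, where points are arrays and lines and bars the mean ± SD (n = 4 fetal, 4 infant, 3 adult). Every infant point lies below all others in its panel, by 0.15 for SMYD5 and by only 0.02 for PDLIM7.

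Other genes were named for a small p in the infant contrast. FERMT2, kindlin-2, an activator of integrins, read 9.36, 9.28, 8.76 and 8.89 in infant, at most 8.55 in fetal, and 8.67, 8.77 and 8.60 in adult arrays. Infant array 3 lay just below adult array 2. Its contrast was 0.63 (SE 0.13, adjusted p = 0.835), and the infant mean was the highest in all 3 FERMT2 probe sets, with the others at 0.42 and 0.20. CD24, a small surface protein, was lowest in infants at -0.40 (SE 0.08, adjusted p = 0.835) in 1 dim probe set, with a mean of 7.29. The infant arrays lay below all others in 2 of its 6 probe sets, but the infant mean was the highest in 2. LUC7L3, a splicing factor, was lower by the same measure at -0.46 (SE 0.10, adjusted p = 0.865), with other probe sets at -0.37 and 0.08.

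For several genes the contrast came mostly from 1 side. ACTG2, smooth muscle gamma actin, stood at -0.91 (SE 0.15, adjusted p = 0.421), but the infant arrays, at 8.00 to 8.36, overlapped the fetal range of 8.03 to 8.99. They lay far below the adult arrays at 9.63 to 9.92, so that the difference was -0.25 against fetal and -1.57 against adult arrays (adjusted p = 0.0106 for the adult side). MFAP5, a microfibril protein, had a contrast of -0.56 with the infant mean between the others, at 0.15 against fetal and -1.27 against adult arrays, and its other probe sets had contrasts of 0.05 and -0.33. IGFBP6, which binds IGF-II, stood at 0.99 (SE 0.23, adjusted p = 0.865), with 0.34 on the fetal and 1.64 on the adult side. SMAD3, a TGF-beta signal transducer, stood at 0.39, with 0.09 and 0.69, in its brightest probe set. Its other 3 probe sets stood at 0.15, 0.03 and 0.02, with 0.10, -0.07 and 0.04 on the adult side. On the other side, the WNT receptor FZD2 stood at -0.63 with -0.99 against fetal and -0.28 against adult arrays, and the transcription factor GATA6 at -0.41 with -0.79 and -0.03.

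Immediate early genes were the list with the largest share of infant peaks. Of 38 listed genes 36 were measured, and the infant mean was the highest in 27 (75.0%), the lowest in 3 and between in 6, beside 26.6% and 35.9% over all genes. The median infant contrast was 0.26, with 0.19 against fetal and 0.34 against adult arrays, beside -0.0188 for the infant contrast over all genes. None was called, beside 0% of all probe sets. Of the 36 members 9 had an unadjusted p under 0.05, all of them higher, beside 5.59% of all probe sets in either direction. FOS and JUN alone had no overlap. Over all probe sets 0.257% had every infant array above the others and 0.437% below.

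EGR1, a zinc finger factor induced by growth signals, read 9.66, 10.04, 9.75 and 10.97 in fetal, 10.93, 11.44, 11.64 and 11.30 in infant, and 11.11, 10.38 and 9.72 in adult arrays. Fetal array 4 and adult array 1 lay within the infant range, and all other arrays below it. The contrast was 1.07 (SE 0.26, adjusted p = 0.865). KLF4, a Krüppel-like factor, stood at 0.99 (SE 0.44), DUSP1, a phosphatase that switches off stress kinases, at 0.75 (SE 0.26), FOSB, a FOS relative, at 0.75 (SE 0.39), the nuclear receptor NR4A2 at 0.68 (SE 0.60) and JUNB at 0.55 (SE 0.31). The 3 members with the infant mean lowest were FOSL2 at -0.45, DUSP4 at -0.15 and SPRY4 at -0.11.

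NR4A3, an orphan nuclear receptor, passed or missed the test by 1 array. It read 8.32, 8.32, 8.41 and 10.19 in fetal, 9.29, 9.43, 9.88 and 9.78 in infant, and 8.46, 8.47 and 8.37 in adult arrays. All infant arrays lay above 6 of the 7 others, and fetal array 4 lay above all infant arrays. The contrast was 0.97 (SE 0.29, adjusted p = 0.885). Without fetal array 4 it was 1.20 and passed (adjusted p = 0.00208), as it did at 1.22 with gestation day 120 arrays alone as the fetal group (adjusted p = 0.0138).

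Fetal array 4, from a newborn donor, was the highest of all arrays for 14 of the 36 immediate early genes, more than infant array 4 with 7 and infant array 3 with 6. The mean deviation of the list, the average over members of the log2 value minus the gene mean, was -0.27, -0.25, -0.31 and 0.58 in fetal arrays, -0.11, 0.09, 0.42 and 0.44 in infant arrays, and -0.15, -0.12 and -0.32 in adult arrays. Infant arrays 3 and 4 and fetal array 4 were thus high, infant array 2 was intermediate, and infant array 1 lay just above the adult arrays. The infant mean was the highest in 28 members with gestation day 120 alone as the fetal group and in 19 with newborns alone. Leaving out single arrays gave 23 to 29, and the quantile scaling gave 29. NR4A2, at 7.48 and 7.73 in infant arrays 1 and 2 but 9.86 and 10.11 in infant arrays 3 and 4, shows the division within the infant group.

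**Figure D4:**
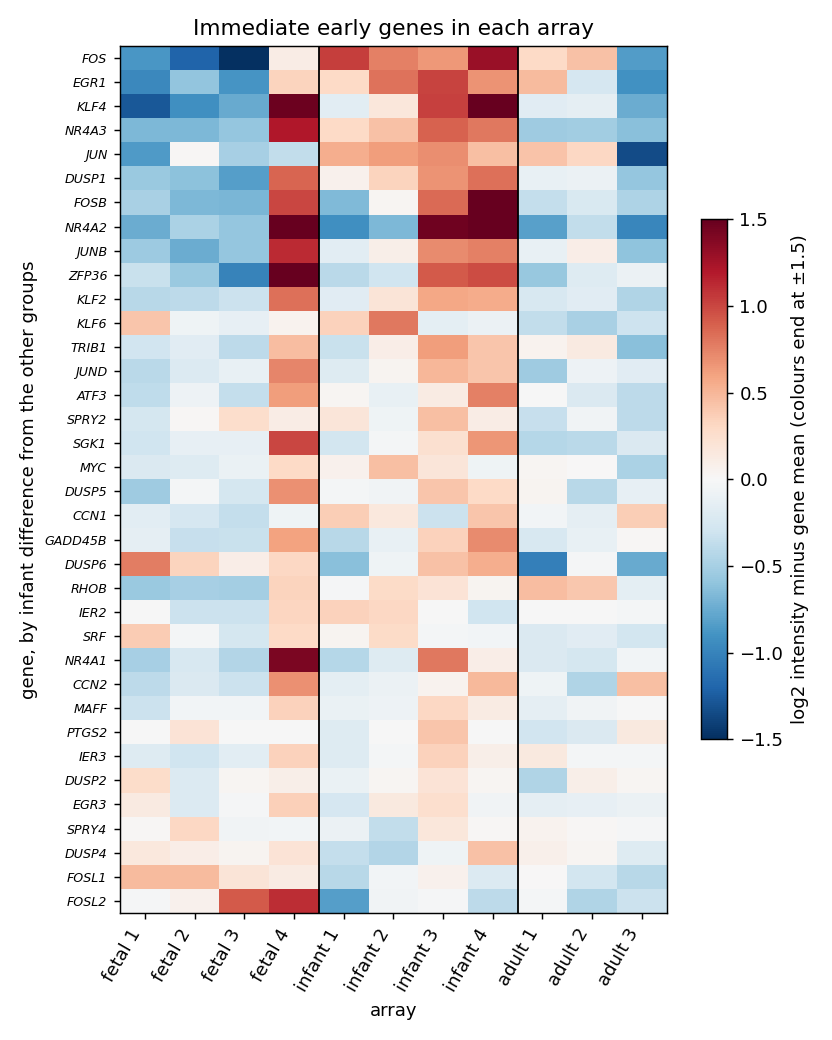
Heat map of the 36 measured immediate early genes (y axis, sorted by infant contrast) in the 11 arrays (x axis), coloured by log2 intensity minus the gene mean, with colours ending at 1.5 either way. FOS and JUN are red in all 4 infant arrays, while most other members are reddest in fetal array 4 (highest for 14 of 36) and infant arrays 3 and 4.

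Most probe sets of fibrillar collagen genes leaned the opposite way. These genes were grouped after COL1A1 and COL5A1 had been seen, so that their count is a description. Over 23 probe sets of 9 genes the infant mean was the lowest in 17, the highest in 1 and between in 5, with a median contrast of -0.29. Over all genes, with 1 probe set each, it was the lowest in 35.9% and the highest in 26.6%. The counts are not alike, since probe sets of the same collagen gene, up to 4 for COL1A1, were counted separately. Both other scalings also gave 17, and leaving out single arrays gave 13 (median -0.22, without fetal array 4) to 19.

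COL1A1, the main chain of bone collagen, read 10.84, 11.18, 10.64 and 11.92 in fetal, 9.43, 10.89, 10.84 and 10.86 in infant, and 11.55, 11.27 and 11.44 in adult arrays. Infant array 1 was far below the rest, and the other infant arrays overlapped the fetal but not the adult ones. The contrast was -0.78 (SE 0.28, adjusted p = 0.885), or -0.42 without infant array 1. All 4 COL1A1 probe sets had the infant mean lowest, the other 3 at -0.28, -0.16 and -0.15. The brightest, with a mean of 14.64 against 10.99 for the probe set at -0.78, was the one at -0.28. Its partner chain COL1A2 stood at -0.29 and -0.32 in 2 probe sets. COL5A2, which joins COL5A1 in collagen V, stood at -0.47 and -0.46, and COL11A1, a minor chain of cartilage fibrils, at -0.53 and -0.27. COL3A1, of elastic tissues, stood at -0.43, -0.32 and -0.30 in 3 probe sets and at 0.02 in the remaining dim one. COL2A1, COL5A3 and COL11A2, with 2 probe sets each, stood between -0.09 and 0.09.

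The collagen list as a whole, with fibrillar chains such as COL5A1 among its members, was mixed. Of 20 collagen genes, taken with 1 probe set each, the infant mean was the lowest in 7 (35.0%, beside 35.9% over all genes). It was the highest in 4 (20.0%, beside 26.6%), and the median was -0.12. The mean deviation of this list was 0.00, 0.11, -0.09 and 0.35 in fetal, -0.28, -0.18, -0.03 and 0.11 in infant, and -0.08, -0.10 and 0.19 in adult arrays. Infant arrays 1 and 2 were thus the lowest of all, while infant arrays 3 and 4 lay above adult arrays 1 and 2. Of 16 osteoblast lineage genes the infant mean was the lowest in 8 (50.0%, beside 35.9%), COL1A1 and COL1A2 among them. It was the highest in 3 (18.8%, beside 26.6%), with a median of -0.09. Osteoblast members included SPARC, a matrix protein of bone, at -0.15 (SE 0.12), ALPL, the alkaline phosphatase of mineralizing cells, at -0.14 (SE 0.11), and RUNX2, the master factor of the lineage, at 0.14 (SE 0.09).

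Sterol and fatty acid synthesis held no infant peak. The infant mean was the lowest in 10 of 15 measured genes (66.7%, beside 35.9% over all genes). It was the highest in 0 (beside 26.6%) and between in 5. The median was -0.13, and 1 member had an unadjusted p under 0.05, beside 5.59% of all probe sets. Without infant array 3 the counts were 8 lowest and 4 highest, and both other scalings gave 9 and 0. NSDHL, a sterol dehydrogenase, read 8.65, 8.49, 8.50 and 7.65 in fetal, 7.83, 7.77, 7.67 and 7.54 in infant, and 7.86, 7.80 and 8.22 in adult arrays. Fetal array 4 and adult array 2 lay within the infant range, and the contrast was -0.44 (SE 0.16, adjusted p = 0.885). SCD, the desaturase that makes monounsaturated fatty acids, was tallied with the adipocyte list and had the infant mean lowest in all 4 probe sets, at -0.48, -0.41, -0.07 and -0.07. FASN, fatty acid synthase, stood at -0.40 (SE 0.14) in its brighter probe set and at 0.15 in its other one. Over 18 adipocyte lineage genes the infant mean was the lowest in 10 (55.6%, beside 35.9%) and the highest in 5 (27.8%, beside 26.6%). PPARG, the master factor of fat cells, stood at 0.35 (SE 0.16).

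The share of cell division genes with the infant mean lowest was near that of all genes. Of 30 mitosis genes the infant mean was the lowest in 12 (40.0%, beside 35.9% over all genes), between in 18 and the highest in 0 (beside 26.6%), with a median of -0.10 for the infant contrast, -0.21 against fetal and 0.00 against adult arrays. The count of lowest genes was 19 without adult array 3 and 18 without infant array 3. Quantile normalization gave 11 lowest and 1 highest, and median centring 10 and 1. CCNB1, cyclin B1, read 8.58, 8.93, 8.67 and 7.79 in fetal, 7.23, 7.68, 8.07 and 7.45 in infant, and 7.79, 8.32 and 7.48 in adult arrays. Fetal arrays 1 to 3 were high, and fetal array 4 overlapped the infant and adult arrays, with a contrast of -0.57 (SE 0.22, adjusted p = 0.885). TOP2A, the topoisomerase of dividing cells, stood at -0.30 (SE 0.11) in its brighter probe set and at 0.03 in the other. Of 29 DNA replication genes the infant mean was the lowest in 12 (41.4%) and the highest in 3 (10.3%), with a median of -0.09. The count of lowest genes was 7 without infant array 4. MCM6, a helicase subunit, stood at -0.38, with -0.73 against fetal and -0.04 against adult arrays.

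Cytosolic ribosomal protein genes leaned to a peak that depended on adult array 3 and infant array 2. The infant mean was the highest in 10 of 16 (62.5%, beside 26.6% over all genes) and the lowest in 1 (beside 35.9%). The median was 0.13. Without adult array 3 the counts were 3 and 1 with a median of -0.01, without infant array 2 they were 6 and 6, and quantile normalization gave 6 and 3. RPL22 read 13.01, 12.93, 12.74 and 12.81 in fetal, 13.45, 13.31, 12.99 and 13.16 in infant, and 13.16, 13.26 and 12.22 in adult arrays. Adult array 3 was the lowest of all, and adult arrays 1 and 2 lay within the infant range. The contrast was 0.36 (SE 0.17, adjusted p = 0.885).

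**Figure D5:**
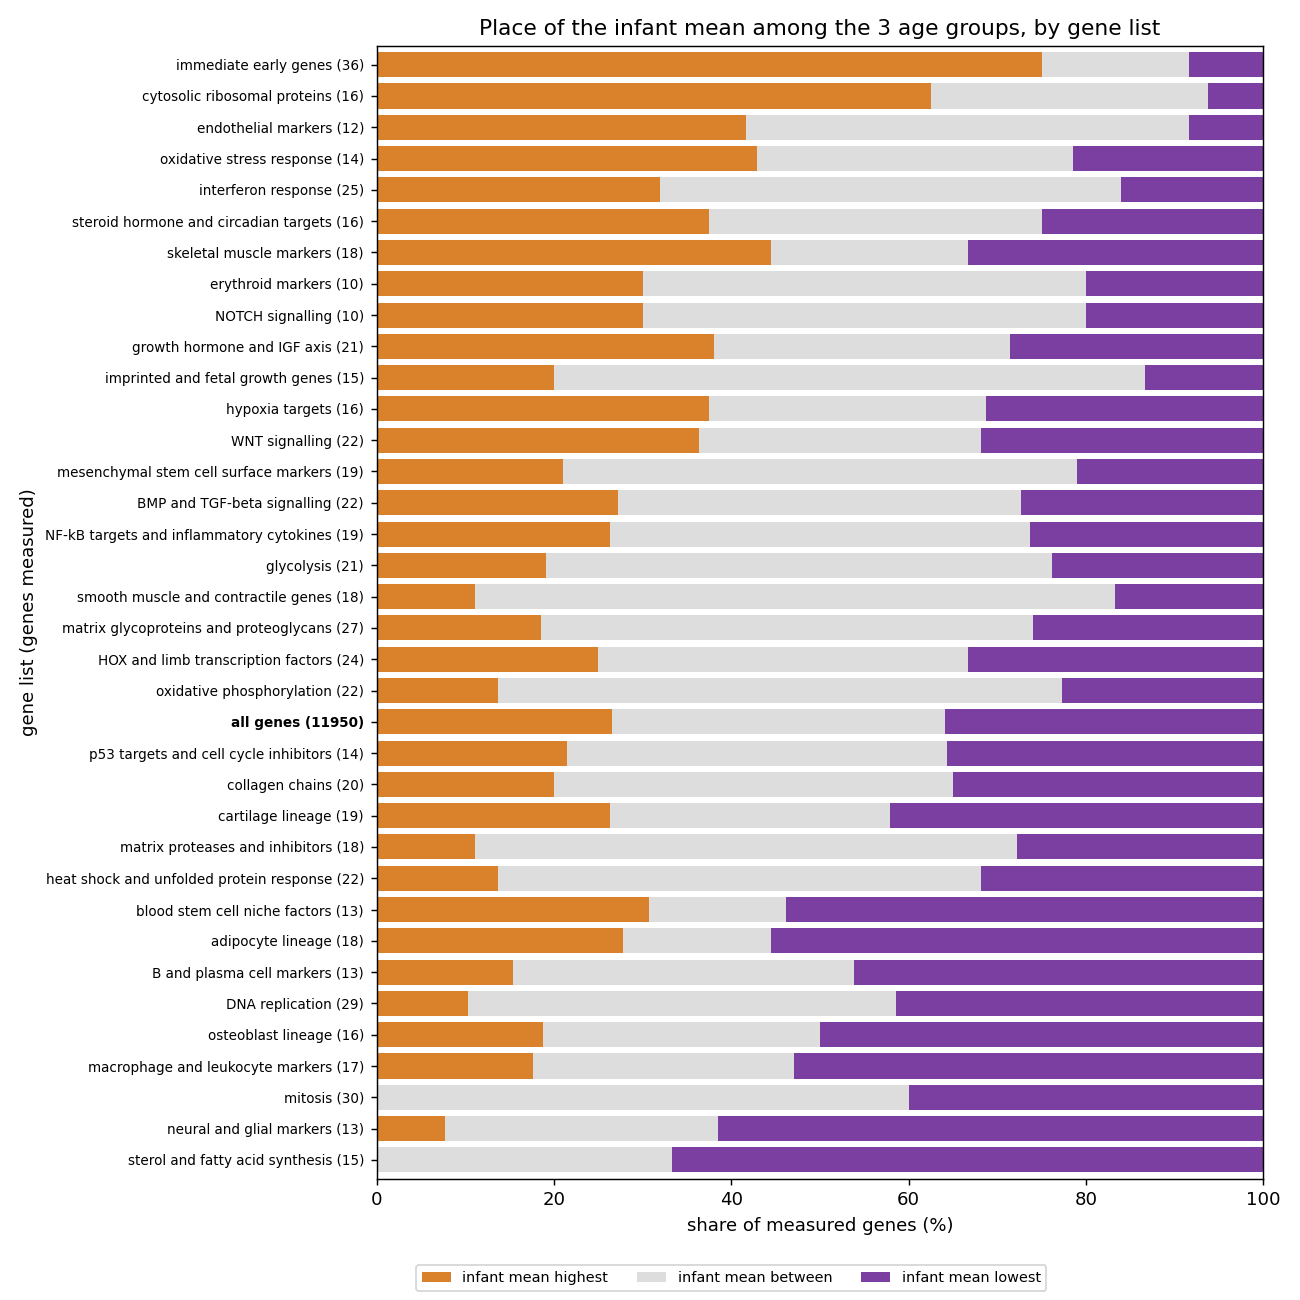
Share of measured genes (x axis, percent) in each of 35 gene lists (y axis, number measured in brackets) whose infant mean was the highest, between or the lowest of the 3 age groups, sorted by the difference between highest and lowest. All 11950 genes stand at 26.6% highest and 35.9% lowest, immediate early genes at 75.0% highest, and sterol and fatty acid synthesis at 66.7% lowest.

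In the other function lists 0 members were called, and the medians of the infant contrast lay between -0.09 and 0.05. Their members of smallest p, which the choice by p makes large, are given with their values only. Higher in infants were NQO1, a quinone reductase of the oxidative stress response, at 0.48 (SE 0.13) and TSC22D3, a glucocorticoid-induced leucine zipper protein, at 0.50 (SE 0.21) in 1 of its 2 probe sets and 0.26 in the other. TIMP3, an inhibitor of matrix proteases, stood at 0.35 (SE 0.12) in 1 dim probe set, at 0.46 and 0.34 in others and at 0.07 in its brightest one. CDKN1C, an imprinted inhibitor of the cell cycle, stood at 0.33 (SE 0.14) with the infant mean highest in all 5 probe sets. IFITM3, an interferon-induced antiviral protein, stood at 0.35 (SE 0.12). HERPUD1 of the unfolded protein response stood at 0.27 and EPAS1, a hypoxia-inducible factor, at 0.28, although the other EPAS1 probe set stood at -0.10. CSF1, the macrophage growth factor, stood at 0.33 in 1 probe set but at -0.23 in its brightest one. Lower in infants were lactate dehydrogenase LDHA at -0.22 and the respiratory chain subunit COX6A1 at -0.19, each from its single probe set. The adhesion receptor ICAM1 stood at -0.32 in 1 probe set but at 0.02 and 0.00 in its others, and the receptor NOTCH2 at -0.26 in 1 but at 0.05, -0.07 and -0.10 in its others, the first of which was its brightest. MEG3, an imprinted noncoding RNA, stood at -0.27 with -0.58 on the fetal and 0.03 on the adult side, and its other probe set stood at 0.11. HTRA1, a secreted protease that cleaves IGF-binding proteins, was noticed after its values were seen. It read 12.45, 12.33, 11.48 and 12.50 in infant and 11.19 to 11.75 in all other arrays. Infant array 3 lay within the range of the others. The contrast was 0.64 (SE 0.16, adjusted p = 0.865), or 0.88 without infant array 3 (adjusted p = 0.0240).

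Markers of other cell types gave no called member in the infant contrast. Over all genes the infant mean was the lowest in 35.9% and the highest in 26.6%. It was the lowest in 9 of 17 macrophage and leukocyte markers (52.9%) and the highest in 3 (17.6%). Their median was -0.07, and CD14 stood at -0.28 (SE 0.16). The mean deviation of this list ranged from -0.07 to 0.02 in fetal, -0.11 to 0.02 in infant and -0.06 to 0.19 in adult arrays. Of 13 neural and glial markers the infant mean was the lowest in 8 (61.5%) and the highest in 1 (7.69%). This list ranged from -0.03 to 0.20 in fetal, -0.09 to -0.02 in infant and -0.11 to 0.01 in adult arrays. Endothelial markers were highest in 5 of 12 and lowest in 1, skeletal muscle markers highest in 8 of 18 and lowest in 6, and erythroid markers highest in 3 of 10 and lowest in 2, with medians of 0.04, 0.04 and 0.02. The endothelial list ranged from -0.08 to 0.03 in fetal, -0.10 to 0.09 in infant and -0.07 to 0.08 in adult arrays, the skeletal muscle list from -0.03 to 0.02, -0.06 to 0.10 and -0.04 to 0.08, and the erythroid list from -0.06 to 0.00, -0.05 to 0.11 and -0.05 to 0.04. The part of these cell types in the results above was not tested.

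B and plasma cell markers separated adult arrays 1 and 2 from the rest. The infant mean was the lowest in 6 of 13 (46.2%, beside 35.9% over all genes) and the highest in 2 (15.4%, beside 26.6%). The median was -0.07, and the list ranged from -0.15 to -0.08 in fetal, -0.24 to -0.04 in infant and -0.01 to 0.58 in adult arrays. IGLC1 stood at -1.71 (SE 0.55, adjusted p = 0.885) in its brightest probe set, with 0.11 against fetal arrays. Without adult array 3 the infant contrast called 23 probe sets in place of 0. Of these 22 were lower in infants, with probe sets of IGLC1, IGKC and IGHM among them, and the remaining one was CD99, which was higher. The infant mean lay between the others in 9 of the 22. Without adult arrays 1 and 2 the contrast called 8, with 3 higher and 5 lower. JUN and the light ferritin chain FTL were among the higher ones, beside RPS4Y1, and COMP, a cartilage matrix protein, and ANKRD1, a stretch-responsive nuclear protein, among the lower ones, beside XIST. In that fit adult array 3 alone stood for the adults, with its spread taken from the infant and fetal arrays.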

How the data were processed

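Total RNA from 11 cultures was hybridised to 1 array each. The deposited values are linear intensities per probe set that the authors obtained by RMA (no version given), per the submitters' processing notes. This method removes differences in overall brightness between arrays. Log2 of the deposited intensity was taken. Of 22215 probe sets 19065 had 1 gene symbol, 1043 several and 2107 none, and genes were named only from the first kind. A linear model with 1 mean per titled group was fitted over all 11 arrays (limma 3.58.1, R 4.3.3, lmFit and eBayes) and tested two-sided, with Benjamini-Hochberg adjustment over all probe sets, called at 0.05. Adjusted p-values are limma's.

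Gene lists (35, with 756 entries, 660 measured) took 1 probe set per gene, that of the highest mean, and were described by counts and medians. Named were the 8 largest peaks and 8 largest dips without overlap (by the smaller of the 2 group differences), in each direction the 5 smallest p-values among genes outside both other means, the member of smallest p of each of 28 function lists, and ENG, THY1, NT5E, CD44 and PTPRC, without sex-linked genes. Members and lists were chosen with earlier results of these data known. HTRA1, the fibrillar collagens, the immunoglobulins, XIST, RPS4Y1 and the list members beyond the rule were picked with their values in view. The model was also tested on simulated data.

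The titles share replicate numbers. Deviations from group means of same-numbered arrays correlated at 0.145, 0.131 and 0.204 for infant and adult arrays, at 0.116, 0.008, 0.041 and 0.275 for infant and fetal arrays, and at 0.068, 0.043 and -0.096 for fetal and adult arrays. All exceeded 0.1 only between infant and adult arrays, so the block is given beside that count. Infant array 2 correlated best with adult array 1, however, and arrays 1 and 2 of both groups stood together on the first component. The correlations therefore cannot show whether the numbers mark pairs. Alternatives were array weights, a block, other scalings, a filter on dim probe sets, a variance trend, a pseudocount, other weights of the groups, other definitions of the fetal group, groups of arrays or single arrays left out, and the mean of all probe sets per gene. No pair of arrays held identical values.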

Additional observations from a re-analysis of the deposited data

Results flagged for a closer look

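In groups of 4 arrays, 13 of 170 gene and list values had 1 array far from the other 3 by Dixon's criterion. Chance gives about 1 in 20 groups. Fetal array 4 stood apart in 6. It read 8.55 for FERMT2 against 8.07 to 8.10 in the other fetal arrays and 7.65 for NSDHL against 8.49 to 8.65. Its mean deviation was 0.58 against -0.31 to -0.25 for immediate early genes, -0.23 against 0.33 to 0.38 for mitosis, -0.21 against 0.26 to 0.28 for DNA replication, and -0.13 against 0.12 to 0.16 for oxidative phosphorylation.

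Fetal array 1 read 8.17 for SGCE against 8.50 to 8.54 and 7.90 for CDKN1C against 7.56 to 7.60. Fetal array 3 read 7.30 for CD24 against 7.28 in each of the others, a gap of no practical size. Infant array 1 read 9.43 for COL1A1 against 10.84 to 10.89 and 7.14 for PTPRC against 7.80 to 7.89. Infant array 2 read 8.40 for ALDH4A1 against 8.13 to 8.16, and the oxidative stress list stood at 0.26 there against 0.00 to 0.02.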

How the results depend on the processing

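Of 1142 values of the 50 named genes under 23 settings, 1130 kept their direction and side of the threshold, 3 newly passed and 9 changed sign, all of identity genes. Leaving out single arrays gave ENG -0.08 to 0.13, THY1 -0.28 to 0.05 and PTPRC -0.21 to 0.04, ENG was -0.10 without adult arrays 1 and 2, and THY1 0.14 without infant and adult arrays 1 and 2. Leaving out single arrays gave 0 to 23 calls in the infant contrast, 0 to 21 for infant minus fetal, 0 to 55 for infant minus adult, 68 to 189 probe sets above all others and 115 to 269 below, since fewer arrays overlap less often. The infant contrast called 1 with gestation day 120 alone as the fetal group, 8 without adult arrays 1 and 2 and 1 with the pseudocount of 64. Infant minus fetal called 5 with gestation day 120 alone, 1 with probe sets above the median level and 1 with array weights. Infant minus adult called 2 with newborns alone, 44 without adult arrays 1 and 2, 10 without infant and adult arrays 1 and 2, 8 with a variance trend and 10 with array weights. With the replicate block the infant contrast called 0, infant minus fetal 2 and infant minus adult 9, and no named gene changed its call in the infant contrast under this pairing. Unadjusted p-values under 0.05 numbered 2112 without adult arrays 1 and 2 and 650 above the median level. Probe sets above and below all others numbered 99 and 159 with gestation day 120 alone, 101 and 174 with newborns alone, 145 and 307 without adult arrays 1 and 2, 1001 and 1241 without infant and adult arrays 1 and 2, and 28 and 54 above the median level. Of 840 list medians 10 moved by more than the spread between arrays. Dim probe sets, and probes that match the monkey sequence poorly, limit what could be seen.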
